A study of Mus musculus with 2 samples.

Results

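The miR-200 family and the miR-183 cluster (miR-183, miR-96 and miR-182) were followed in small RNA of mitochondria taken from mouse heart. The STZ library came from mice given streptozotocin, which destroys insulin-producing beta cells and so serves as a mouse model of diabetes, and the control library from the control heart. The series concerns diabetic cardiomyopathy. Each group had 1 library, and the labels give no dose, strain, age, time after STZ or number of animals pooled. Members were chosen by name, as every listed arm of miR-200a, miR-200b, miR-200c, miR-141, miR-429, miR-182, miR-183 and miR-96. The choice was made with the STZ and control values known, so those values are a description. In all, 12 of the 1018 listed entries were members. Adding the human-named and mouse-named entries of the same miRNA gave 10 of 775 mature names. The entries with reads were hsa-miR-200a-3p, hsa-miR-200b-3p, hsa-miR-200c-3p, hsa-miR-141-3p, hsa-miR-429, mmu-miR-429-3p, hsa-miR-182-5p, mmu-miR-182-5p, hsa-miR-183-5p, hsa-miR-96-5p and hsa-miR-200a-5p, and hsa-miR-200b-5p was listed at 0. Of the 10 mature names, 8 are guide strands (the arm mainly loaded into Argonaute) and 2 are the 5p arms of miR-200a and miR-200b.

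miRNAs guide Argonaute proteins to messenger RNAs that pair with their seed, bases 2 to 8 of the mature strand. The miR-200 family is made in epithelial cells, where it represses the transcription factors Zeb1 and Zeb2 and so keeps up the adhesion protein E-cadherin. The miR-183 cluster is made as a shared transcript and is best known from sensory cells of the retina and inner ear. Neither group is known as a main product of heart muscle.

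The STZ library held 706860 assigned reads and the control library 508182. A read was worth 1.41 RPM (reads scaled to a common library total) in the STZ library and 1.97 RPM in the control library, and the floor of 3 reads used for counts of 0 stood at 4.24 and 5.90 RPM. Heart muscle miRNAs marked both libraries, with miR-1-3p at 252647 RPM in the STZ library and 209319 RPM in the control library. With 1 library a group there was no replicate check and no p-value. The words higher and lower compare these libraries and not the conditions, and every interval covers counting error only. No molecular identifiers are mentioned, so PCR copies of 1 molecule may count more than once.

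The 5 miR-200 guides carry only 2 seeds, shown here because related strands with the same seed did not all differ in the same direction. Capitals mark the seed in the mouse sequences of RefSeq (GRCm38.p6), which were matched to all 10 mature names by name only. Most member entries carry human names, and no human sequences were compared with the mouse strands shown. The seed AAUACUG is shared by miR-200b-3p, miR-200c-3p and miR-429-3p, and AACACUG by miR-200a-3p and miR-141-3p.
miR-200b-3p: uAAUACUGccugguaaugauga
miR-200c-3p: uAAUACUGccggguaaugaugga
miR-429-3p: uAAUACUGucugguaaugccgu
miR-200a-3p: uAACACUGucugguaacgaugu
miR-141-3p: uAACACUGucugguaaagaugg

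The 3 guides of the other cluster resemble each other around the core UGGCA, but each has a seed of its own.
miR-182-5p: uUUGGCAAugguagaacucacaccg
miR-183-5p: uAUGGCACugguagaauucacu
miR-96-5p: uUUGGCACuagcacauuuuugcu

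Close relatives differ at few bases, counted from 1 at the 5′ end. miR-200a-3p and miR-141-3p are equal at 20 of 22 positions and differ by C17A and U22G. miR-200b-3p and miR-200c-3p are equal at 20 of the 22 positions compared, with U11G and A22G. miR-182-5p and miR-183-5p are equal at 18 of 22. How many mismatches the authors' mapping allowed is not given in these sources, so reads shared between such pairs cannot be told apart. Of the other mouse miRNAs of RefSeq, miR-1271-5p alone has the seed of a guide listed here (that of miR-96-5p), and it was not among the named entries.

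The hairpins fall into 3 loci, all on the minus strand (GRCm38). miR-200b, miR-200a and miR-429 lie within 1846 bases at chr4:156053905-156055750, inside the protein-coding gene Ttll10 but outside its exons. The same hairpins lie inside the noncoding transcript Gm13648, with Mir429 in one of its exons. miR-200c and miR-141 lie within 477 bases at chr6:124717914-124718390, in the noncoding gene Gm15884 and outside its exons. Mir141 also overlaps an exon of the unreviewed gene model Gm29008. miR-183, miR-96 and miR-182 lie within 3820 bases at chr6:30165918-30169737, where the GENCODE M21 annotation has no other gene over the hairpins.

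As a family, the miR-200 guides were scarcer in the STZ library. Their sum was 22 reads or 31.1 RPM (exact Poisson 95% interval 19.5 to 47.1) in the STZ library and 117 reads or 230.2 RPM (190.4 to 275.9) in the control library. The STZ to control ratio was 0.135, with an exact 95% interval of 0.0816 to 0.214, or 7.40-fold lower. The family thus made up 0.00311% of STZ reads and 0.0230% of control reads, so that every result on it rests on few reads. In this mitochondrial RNA, fewer cells of a type, less RNA per cell and a smaller share in the fraction cannot be told apart.

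That deficit came from 3 of the 5 guides. miR-200b-3p, the family's most read member in the control, had 3 reads (4.24 RPM) in the STZ library and 57 reads (112.2 RPM) in the control library, a ratio of 0.0378 (0.00758 to 0.116). Among the 775 mature names it ranked 348 in the STZ library and 145 in the control library. miR-200a-3p, its neighbour with the other seed, had 4 STZ reads (5.66 RPM) and 32 control reads (63.0 RPM), a ratio of 0.0899 (0.0231 to 0.253). miR-200c-3p, from the locus on chromosome 6, had 4 STZ reads (5.66 RPM) and 24 control reads (47.2 RPM), a ratio of 0.120 (0.0302 to 0.349). The 3 intervals overlapped each other, so no order of size among these ratios could be read. In sum the 3 had 11 STZ reads and 113 control reads, 14.3-fold lower (7.69 to 29.4). They were grouped by their direction in these same libraries, so the sum and its interval describe that grouping and lend it no support.

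The 2 remaining guides did not share that direction. miR-429-3p, encoded beside miR-200a and miR-200b, had 7 reads (9.90 RPM) in the STZ library and 4 reads (7.87 RPM) in the control library, a ratio of 1.26 with an interval of 0.320 to 5.86. Its human-named entry, hsa-miR-429, had 0 STZ reads and 2 control reads, and its mouse-named entry, mmu-miR-429-3p, 7 and 2, so that the mouse-named entry alone gave a ratio of 2.52. miR-141-3p, encoded beside miR-200c, had 4 STZ reads (5.66 RPM) and 0 control reads, where the floor of 3 reads gives no fold and the interval of the ratio had a lower bound of 0.475. At this depth neither miRNA could be told apart between the libraries, but the interval of miR-429-3p lay above the whole interval of miR-200b-3p (upper bound 0.116), although they share a seed and a locus. miR-141-3p and miR-429-3p together had 11 STZ reads and 4 control reads, a ratio of 1.98 (0.586 to 8.51). This pair, too, was formed after the values were seen.

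**Figure D1:**
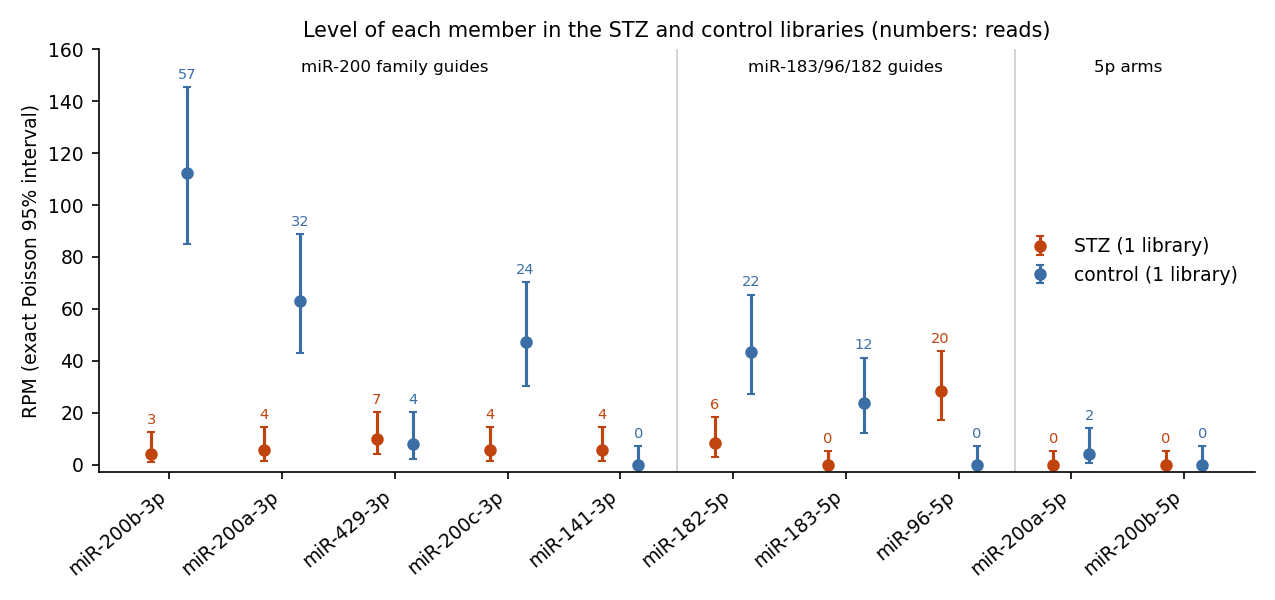
Level of the 10 mature names in RPM, with the STZ library left of the control library for each. Points are single libraries, bars are exact Poisson 95% intervals of counting error, and the numbers are reads. miR-200b-3p has 3 STZ reads and 57 control reads, while miR-96-5p has 20 and 0.

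The make-up of the family therefore differed between the libraries. miR-200b-3p gave 13.6% of the family's guide reads in the STZ library (3 of 22, Wilson 95% interval 4.75 to 33.3) and 48.7% in the control library (57 of 117, 39.8 to 57.7). miR-429-3p gave 31.8% in the STZ library (16.4 to 52.7) and 3.42% in the control library (1.34 to 8.46). miR-141-3p gave 18.2% of STZ family reads (7.31 to 38.5), against 0 of 117 control reads, which allows a share of up to 2.56% by the floor of 3 reads (Wilson upper bound 3.18%). For these 3 guides the intervals of the libraries did not overlap. For miR-200a-3p (18.2% of STZ and 27.4% of control reads) and miR-200c-3p (18.2% and 20.5%) they did.

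Neither seed nor locus marked out the scarcer guides. Strands with the seed AAUACUG summed to 14 STZ reads and 85 control reads, a ratio of 0.118 (0.0621 to 0.210). Strands with AACACUG summed to 8 and 32, a ratio of 0.180 (0.0716 to 0.398). By locus, the guides of the miR-200b cluster had 14 STZ and 93 control reads (ratio 0.108, 0.0570 to 0.191), and those of the miR-200c cluster had 8 and 24 (0.240, 0.0931 to 0.551). Both seeds and both loci were thus lower in the STZ library, and their intervals overlapped within each pair. The first seed held 63.6% of the family's STZ reads (43.0 to 80.3) and 72.6% of its control reads (63.9 to 79.9), a difference within counting error.

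**Figure D2:**
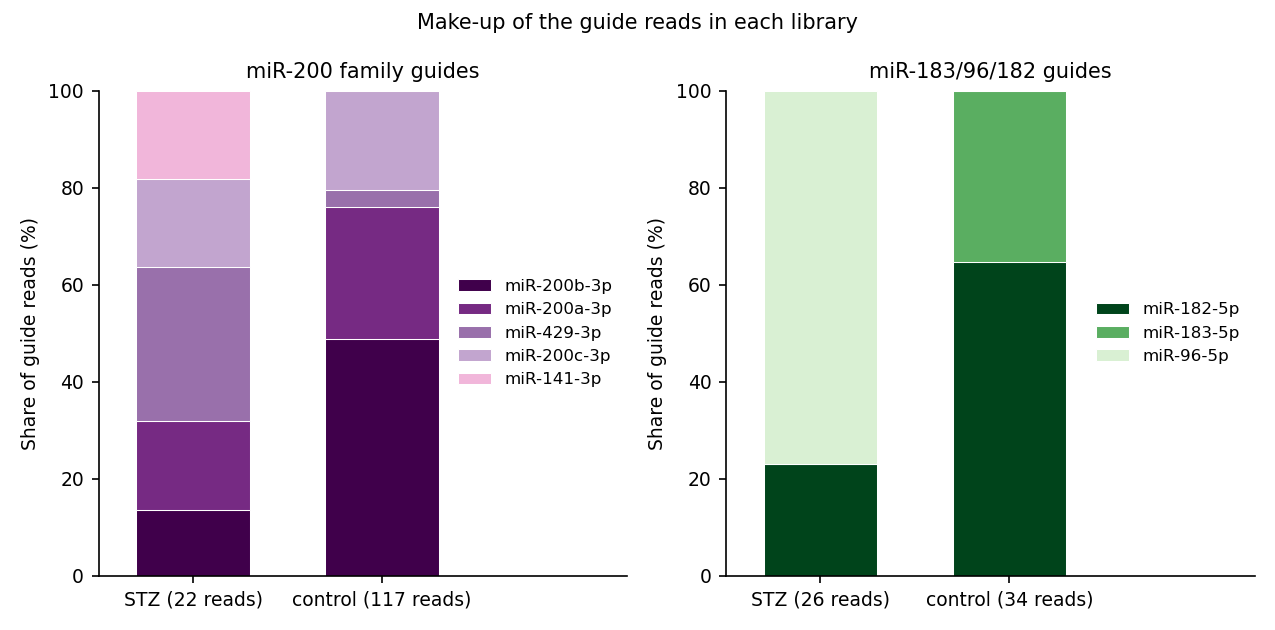
Share of each guide in the reads of its family (percent, vertical axis), with the STZ bar left of the control bar in each panel. In the left panel miR-429-3p and miR-141-3p fill more of the STZ bar, and in the right panel miR-96-5p makes up 76.9% of the STZ bar and none of the control bar.

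The miR-183 cluster guides split more sharply. miR-182-5p, which in mice is abundant in photoreceptors, had 6 reads (8.49 RPM) in the STZ library and 22 reads (43.3 RPM) in the control library, a ratio of 0.196 (0.0650 to 0.499). Of the 6 STZ reads, 4 stood under hsa-miR-182-5p and 2 under mmu-miR-182-5p, which had 0 control reads. The human-named entry alone gave a ratio of 0.131. miR-183-5p, which gives the cluster its name, had 0 STZ reads and 12 control reads (23.6 RPM). With the STZ count set to the floor of 3 reads it was 5.56-fold lower. The interval of its ratio ended at 0.259, which allows a difference as small as 3.86-fold. miR-182-5p and miR-183-5p together were 7.88-fold lower (3.27 to 23.0), with 6 STZ and 34 control reads. The pair was picked because both were lower here, so its fold and interval are a description only.

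miR-96-5p, whose seed mutations cause hearing loss in mice and humans, went the other way. It had 20 reads (28.3 RPM, 17.3 to 43.7) in the STZ library and 0 in the control library. That was 4.79-fold more than 3 control reads would give. The interval of the ratio began at 3.55, so a smaller difference is allowed. In the STZ library miR-96-5p was the most read of all 10 members, ranking 215 among the mature names, and in the control library it was not detected. Its hairpin lies between those of miR-183 and miR-182.

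Because of this split, the sum of the cluster hid most of the difference. The 3 guides had 26 reads (36.8 RPM) in the STZ library and 34 reads (66.9 RPM) in the control library, a ratio of 0.550 (0.317 to 0.944). Without miR-182-5p the ratio was 1.20, without miR-183-5p 0.850 and without miR-96-5p 0.127. miR-96-5p supplied 76.9% of the cluster's STZ reads (57.9 to 89.0), against 0 of 34 control reads, which allows a share of up to 8.82% by the same floor (Wilson upper bound 10.2%). miR-182-5p supplied 23.1% of the STZ reads (11.0 to 42.1) and 64.7% of the control reads (47.9 to 78.5). miR-183-5p supplied 0 of 26 STZ reads, which allows up to 11.5% by that floor (Wilson upper bound 12.9%), and 35.3% of the control reads (21.5 to 52.1).

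**Figure D3:**
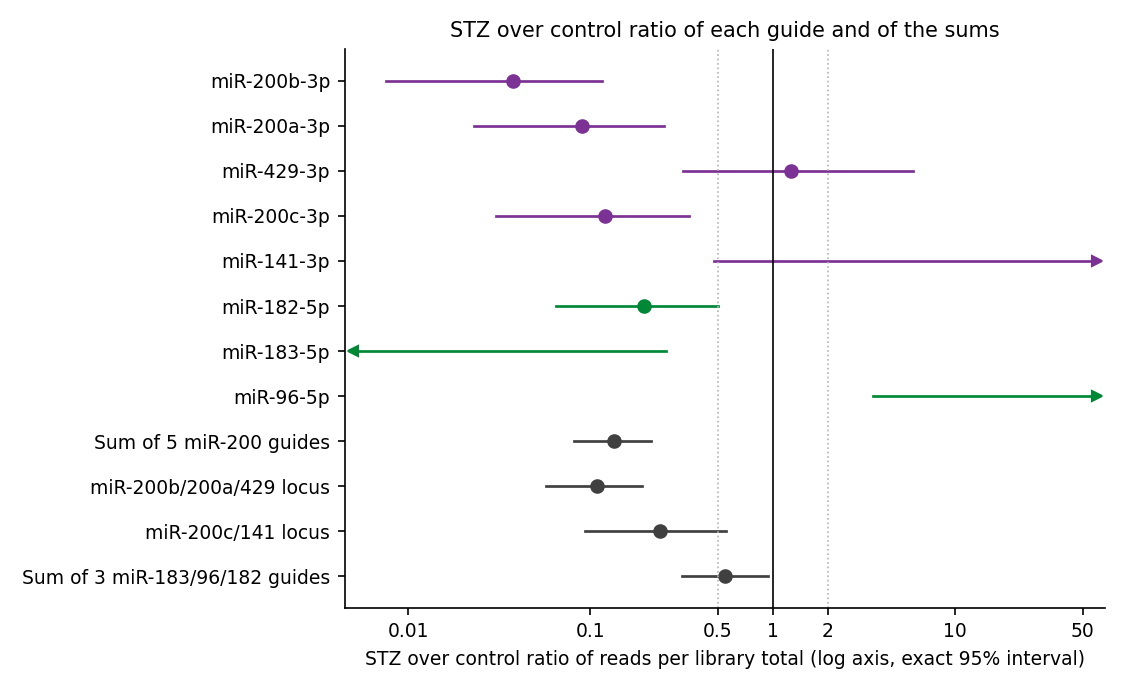
STZ over control ratio of each guide and of sums of guides on a log axis, with exact 95% intervals of counting error. Arrows mark intervals that run to 0 or without limit and have no point, the solid line marks equality and the dotted lines a 2-fold difference. miR-200b-3p, miR-200a-3p, miR-200c-3p, miR-182-5p and miR-183-5p lie left of equality, miR-96-5p lies right of it, and the intervals of miR-429-3p and miR-141-3p cross it.

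The passenger arms were close to the limit of detection. miR-200a-5p had 0 STZ reads and 2 control reads, and miR-200b-5p was at 0 in both libraries. Both lay under the floor of 3 reads, so no fold is given. No other arm of these precursors was among the entries.

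The order of the 8 guides was not the same in the libraries. In the STZ library it ran from miR-96-5p over miR-429-3p and miR-182-5p to miR-200a-3p, miR-200c-3p and miR-141-3p, which had equal reads, then miR-200b-3p and miR-183-5p. In the control library it ran from miR-200b-3p over miR-200a-3p, miR-200c-3p, miR-182-5p, miR-183-5p and miR-429-3p to miR-96-5p and miR-141-3p, both at 0. The Poisson intervals of neighbours overlapped throughout both orders. Spearman's rho between the libraries over the 8 guides was -0.52, a description across miRNAs that share loci and libraries.

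Large differences were common among scarce miRNAs in these libraries, which sets the scale for the members. A mature name was called higher or lower where log2(RPM + 1) differed by at least 1 and its mean level was at least 10 RPM. By that rule 51 of 301 names were higher in the STZ library (16.9%) and 53 were lower (17.6%), with a median log2 difference of -0.02 over all 301. Of the 10 members, 6 passed the minimum, 5 were called lower and miR-96-5p was called higher. Each of the 6 passed through the library in which it was high, so this count describes the choice of members and lends it no support. On the scale of log2(RPM + 1), the 4 with reads in both libraries ran from miR-200b-3p at -4.43 to miR-182-5p at -2.22. The values of miR-183-5p (-4.62) and miR-96-5p (4.87), each at 0 in a library, are set by the pseudocount of 1 RPM and have no place in that order. With no minimum level, 6 of 9 members with reads were lower and 2 higher, against 24.2% lower and 28.3% higher of all 446 names with reads. This added miR-200a-5p (0 STZ and 2 control reads) to the lower and miR-141-3p (4 and 0) to the higher. At such counts the pseudocount sets the call, and no fold is given for either. Of all names with 20 to 99 reads over both libraries, 54.9% were 2-fold apart in either direction, as were all 5 members in that class. Those 5 reached the class mostly through the library in which each was high, so this count, too, lends the choice no support.

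**Figure D4:**
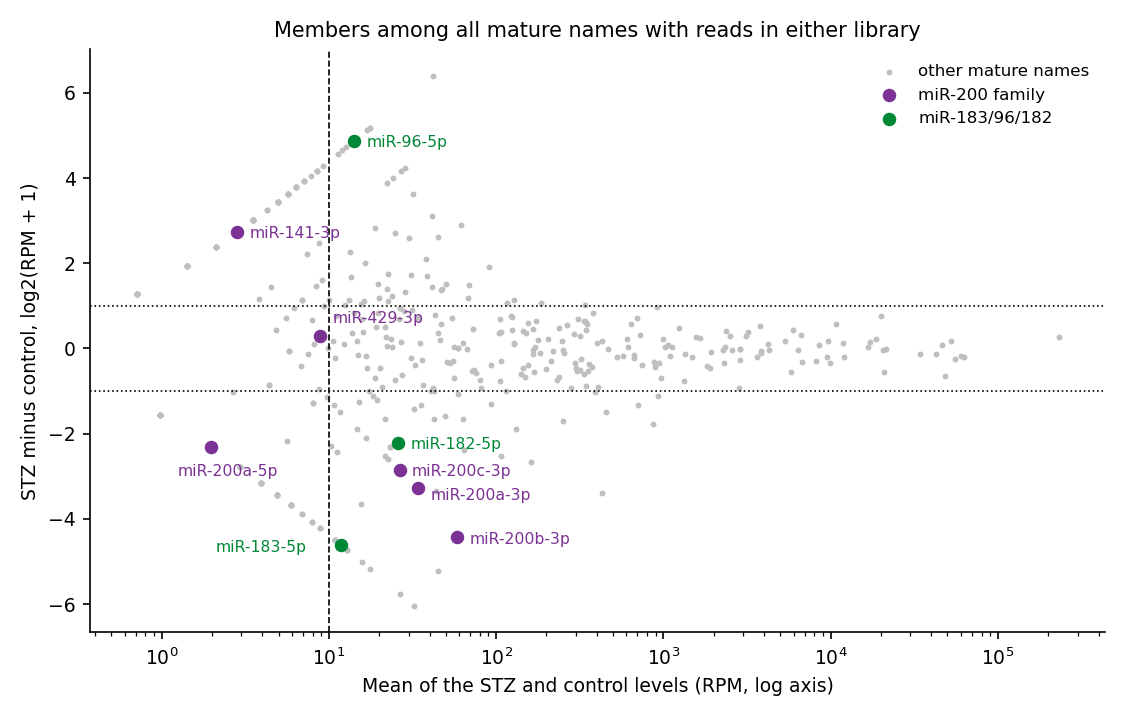
Difference of log2(RPM + 1), STZ minus control, of every mature name with reads in either library against its mean RPM (log axis). The dashed line marks the minimum of 10 RPM and the dotted lines a 2-fold difference. The members lie in the range of low levels where the grey points of other miRNAs also spread widely, and miR-200b-3p stands at -4.43.

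Other epithelial miRNAs were not uniformly lower. Of a list of 10, 8 were among the named entries and 6 passed the minimum level. Of those 6, 4 were called lower and 0 higher, against 17.6% lower and 16.9% higher of the 301 names that passed. Their median log2 difference was -1.55, against -0.02 for all 301. The list was chosen with earlier results of these data known, so the count is a description. miR-203a-3p, which in mouse skin limits the growth of keratinocytes, had 117 reads in each library (165.5 RPM in the STZ library and 230.2 RPM in the control library). Its ratio of 0.719 (0.552 to 0.937) lay above the whole interval of the miR-200 family (upper bound 0.214), although the family had the same 117 control reads. miR-31-5p, also read in skin and other epithelia, had a ratio of 1.34 (0.975 to 1.84). miR-205-5p, a miRNA of stratified epithelium, was at 0 in both libraries, and miR-34c-5p, made in ciliated cells, had 5 STZ reads and 0 control reads.

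The 4 called lower are miRNAs of glandular or gut-type epithelium, a description made after the calls were seen and not tested. miR-375-3p, of pancreatic islets and gut endocrine cells, had 4 STZ reads and 20 control reads, a ratio of 0.144 (0.0357 to 0.429). miR-192-5p, miR-194-5p and miR-215-5p, shared by gut, kidney and in part liver, had ratios of 0.396 (0.342 to 0.459), 0.293 (0.254 to 0.338) and 0.156 (0.102 to 0.231).

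A marker of another organ, miR-122-5p of the liver, was lower along with the miR-200 guides. The liver list held miR-122-5p, with miR-192-5p and miR-194-5p, which the epithelial list also holds and which are not particular to liver. All 3 were above 0 in both libraries, and they summed to 870.0 RPM in the STZ library and 3147 RPM in the control library. Of these 3 names, 3 were called lower, against 17.6% of all 301 names that passed the minimum level. This list, too, was chosen with earlier results known, and miR-192-5p and miR-194-5p were already counted in the epithelial list. The count therefore lends no support. miR-122-5p, the dominant miRNA of hepatocytes, had 73.6 RPM in the STZ library and 787.1 RPM in the control library, a ratio of 0.0935 (0.0686 to 0.125). Of the 7 epithelial markers, which include the 5 miR-200 guides, 6 were above 0 in the STZ library and 5 in the control library, and they summed to 196.6 and 460.5 RPM. Of the 4 markers of sensory epithelium and neuroendocrine cells, 3 were above 0 in each library, with miR-183-5p at 0 in the STZ library and miR-96-5p at 0 in the control library, and they summed to 42.4 RPM in the STZ library and 106.3 RPM in the control library. The part that RNA of other cells or organs had in the values of the guides of both groups was not tested.

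The 5 heart muscle markers summed to 315170 RPM in the STZ library and 280496 RPM in the control library, a ratio of 1.12. Most of both sums was miR-1-3p, with a ratio of 1.21 (1.20 to 1.22), and the other markers diverged. miR-499a-5p had a ratio of 1.07 (1.02 to 1.14), and miR-208b-3p alone was at 0 in the control library, against 59 STZ reads. miR-208a-3p, from an intron of the myosin gene Myh6, had a ratio of 0.498 (0.345 to 0.713). The ratio of muscle miR-133a-3p was 0.866 (0.854 to 0.879), with endothelial miR-126-3p at 0.639 (0.628 to 0.650) and red cell miR-451a at 0.525 (0.490 to 0.563). The sums of the 2 endothelial, 2 red cell and 4 leukocyte markers had ratios of 0.658, 0.526 and 0.764, with every marker above 0 in both libraries. The lowest ratio among these 8 was that of leukocyte miR-142-3p, at 0.479 (0.170 to 1.28) from 8 STZ and 12 control reads.

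**Figure D5:**
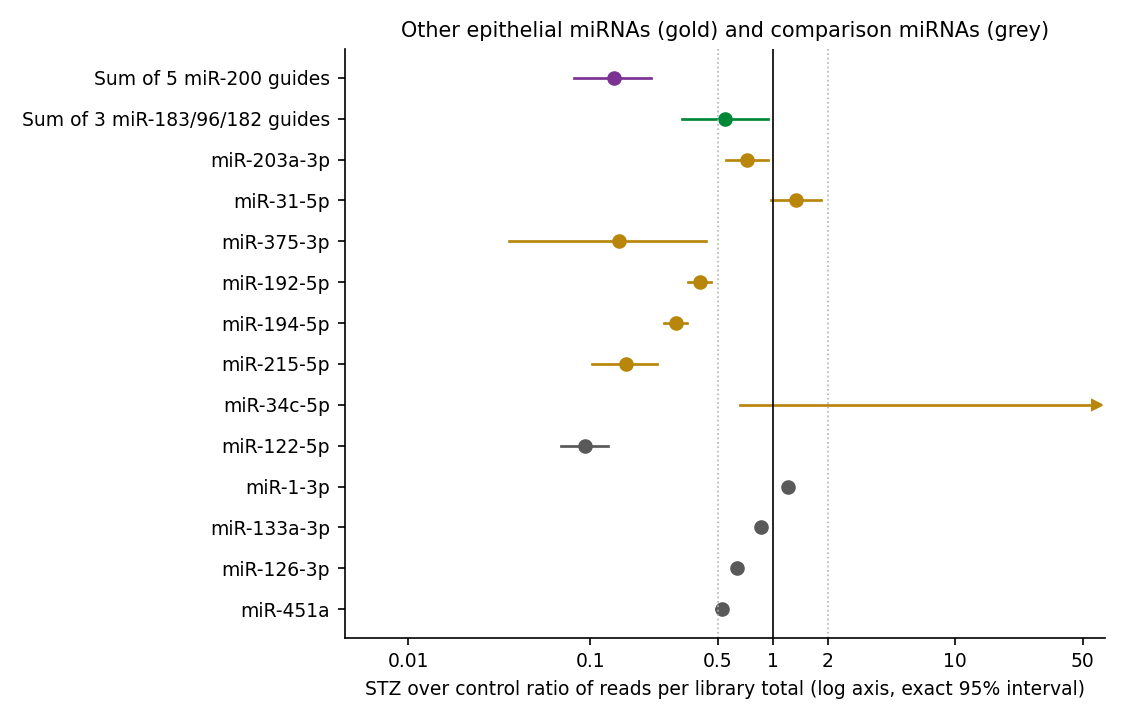
STZ over control ratio on a log axis, with exact 95% intervals of counting error, of the sums of the miR-200 and miR-183 cluster guides, of other epithelial miRNAs and of liver, muscle, endothelial and red cell miRNAs. miR-203a-3p lies at 0.719 with its interval below equality, and the interval of miR-31-5p crosses equality. miR-122-5p, at 0.0935, lies near the miR-200 sum, at 0.135. The arrow marks an interval without upper limit.

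The mature names with the log2 ratio nearest to that of miR-200b-3p (-4.72) were sought among the 253 other names with at least 20 reads and a read in each library. The nearest 5 were miR-3068-3p (-3.51, 5 STZ and 41 control reads), miR-362-5p (-5.97, 1 and 45 reads), miR-122-5p (-3.42, 52 and 400 reads), miR-503-5p (-3.12, 4 and 25 reads) and miR-375-3p (-2.80, 4 and 20 reads). The likeness rests on 2 libraries. None came within 1 log2 unit of miR-200b-3p, the closest being 1.21 away. That distance lies within counting error, as miR-200b-3p had only 3 STZ reads. Its ratio interval (0.00758 to 0.116) held the ratios of miR-3068-3p (0.0877), miR-362-5p (0.0160), miR-122-5p (0.0935) and miR-503-5p (0.115). The ratio of miR-375-3p (0.144) lay outside it. Names at 0 in a library were left out of the search.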

How the data were processed

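Small RNA of heart mitochondria was sequenced in 1 STZ and 1 control library. The deposited files hold a signal in RPM, scaled by the authors to the reads assigned to 1018 listed small RNAs. Per the submitters' processing notes the build was GRCm39, while aligner and miRNA reference are not given. A nameless entry equal to the sum of the 66 entries above it (96.6% of the STZ total and 96.5% of the control total) was left out. Values were whole multiples of 1 read for 100% of entries within 0.001 of a read, and the recovered reads gave the intervals. A count test on them with edgeR was not possible, as single libraries leave no residual degrees of freedom, so there are 0 such calls.

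Human-named and mouse-named entries of a mature name were summed, miR-429 as miR-429-3p. Ratios of reads over library totals have exact conditional binomial 95% intervals, shares Wilson intervals and levels exact Poisson intervals. A call needed a 2-fold difference on the log2(RPM + 1) scale, which understates low miRNAs, and a mean of 10 RPM. The text names every member, the other epithelial miRNAs, markers of other cells and the 5 names most like miR-200b-3p. Members and lists were chosen with earlier results of these data known. Alternatives covered scaling (edgeR 4.0.16 TMM, DESeq2 1.42.0 size factors), minimum level, fold, pseudocount, naming and summed members. Python 3.11.15, scipy 1.17.1 and R 4.3.3 were used, and the call and interval code was tested on simulated data. Coordinates and sequences are from RefSeq and GENCODE M21 on GRCm38, since the files give none for named miRNAs.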

Additional observations from a re-analysis of the deposited data

How the results depend on the processing

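No paired analysis was possible because the comparison rests on 1 STZ and 1 control library, and for the same reason none could be left out. Scaling by TMM, by the median of ratios or by totals without the 10 most abundant miRNAs moved log2 ratios by at most 0.03, and with these the member calls stayed at 5 lower and 1 higher. Leaving out miR-200b-3p moved the ratio of the miR-200 guides to 0.228. Leaving out miR-182-5p turned the ratio of the miR-183 cluster guides to 1.20, while leaving out miR-183-5p or miR-96-5p, both chosen after the data were seen, gave 0.850 and 0.127. In each case fewer guides were summed. Taking the higher of the human-named and mouse-named entries moved the ratio of miR-429-3p to 2.52 and that of miR-182-5p to 0.131, within their counting intervals, and the sums to 0.138 (miR-200) and 0.507 (miR-183 cluster). With no minimum level 2 members were called higher in the STZ library, among them miR-141-3p with 4 STZ and 0 control reads. Of all names 126 were then higher and 108 lower. At a mean of 100 RPM no member passed, and 4 names were higher and 10 lower. At 4-fold the calls were 25 higher and 31 lower. The 48 STZ and 151 control guide reads limit every value for the members.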
